A study of Mus musculus with 12 samples.

Results

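The genes described here are the DNA methyltransferases *Dnmt1*, *Dnmt3a* and *Dnmt3b*, the hemimethylated DNA reader *Uhrf1*, and the TET dioxygenases *Tet1*, *Tet2* and *Tet3*. All 7 were found by symbol among the 25860 genes of the RNA-seq table, and 17 of the 23932 listed ATAC-seq peaks carried the name of one of them. Both assays were run on CD8+ T_prog_ cells from the pancreatic lymph nodes of female nonobese diabetic (NOD) mice, with 3 libraries per genotype. Mice of both genotypes carried a transgenic T cell receptor, which recognizes the β cell antigen IGRP. UTX TCD mice carried floxed *UTX* (*Kdm6a*) alleles and an *Lck-Cre* transgene, which acts in T cells from their development in the thymus onward. WT mice were littermates without Cre. In the line without the receptor transgene, the study defines these controls as carrying the floxed alleles too. The labels describe the sort as Ly108 positive without CXCR6 and the study's methods as Ly108 positive without CD39, and the age of the mice is not given in the sources used here. The comparison asks how RNA and chromatin accessibility differ when UTX, an H3K27 demethylase, is lost.

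DNMT1 copies methylation onto newly made DNA after replication, and UHRF1 brings it to hemimethylated sites. DNMT3A and DNMT3B methylate sites that carried no mark, and DNMT3A is known for silencing naive genes as CD8+ T cells become effectors. TET enzymes oxidize methylcytosine, which opens a path back to the unmethylated base, and loss of TET2 is known to favor memory CD8+ T cells.

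Depth ran from 144503203 to 193568919 counted reads among WT libraries and from 61512402 to 187275082 among UTX TCD libraries, with replicate 1 of the latter the shallowest. *Kdm6a* was counted at 28365, 28949 and 29172 in WT against 24158, 24792 and 24579 in UTX TCD cells (normalized counts of replicates 1, 2 and 3, the order used throughout). All UTX TCD values lay below all WT values, with a log2 fold change of -0.23 (limma SE 0.037, adjusted p = 0.00114), and counts per gene do not show the floxed exons.

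*Uhrf1* was the only member called differentially expressed. Its normalized counts were 4220, 4606 and 4566 in WT against 8134, 8607 and 9713 in UTX TCD cells. Every UTX TCD library lay far above every WT library, and UTX TCD replicate 3 was the highest. Mean counts were 4464 ± 212 in WT and 8818 ± 810 in UTX TCD cells (SD, n = 3 each), and the log2 fold change was 0.98 (limma SE 0.07, adjusted p = 1.28e-05). This made 1 of 7 members called, against 17.6% of the 14459 genes tested (2538 genes), and 1 of 7 called higher, against 10.5%. By limma, edgeR and DESeq2 alike 0 members were called lower, where limma called 7.05% of genes tested. By limma's adjusted p alone 1 of 7 was lower (*Dnmt3b*), against 20.5% of genes tested, and at an unadjusted p under 0.05 2 of 7 were (*Dnmt3b* and *Tet3*), against 24.7%. In bulk RNA, a larger share of cells that express a gene and more RNA per cell cannot be told apart.

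*Dnmt1*, the enzyme that UHRF1 recruits, was counted at 49963, 46814 and 49940 in WT against 51194, 49996 and 47676 in UTX TCD cells. The groups overlapped, and the log2 fold change of 0.02 had a 95% interval from -0.08 to 0.13 (adjusted p = 0.751 from limma). Leaving out WT replicate 2 gave -0.01. The ratio of *Uhrf1* to *Dnmt1* normalized counts within a library was 0.0845, 0.0984 and 0.0914 in WT against 0.159, 0.172 and 0.204 in UTX TCD cells. The ratios did not overlap between genotypes, and their log2 means differed by 0.96 (two-sided exact permutation p = 0.10, the smallest that 3 against 3 allow). With *Dnmt1* near level, this ratio restates the *Uhrf1* difference and adds no support to it.

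The de novo enzymes went in opposite directions. *Dnmt3a* was counted at 21629, 24015 and 22874 in WT against 28176, 30343 and 29073 in UTX TCD cells. All UTX TCD values were higher, with a log2 fold change of 0.35 (limma SE 0.05, adjusted p = 0.000612), below the fold limit for a call. *Dnmt3b* was counted at 1413, 1417 and 1430 in WT against 1163, 1147 and 1172 in UTX TCD cells. All UTX TCD values were lower, with a log2 fold change of -0.29 (limma SE 0.066, adjusted p = 0.00717). The ratio of *Dnmt3a* to *Dnmt3b* normalized counts was 15.3, 17.0 and 16.0 in WT against 24.2, 26.4 and 24.8 in UTX TCD cells. These ratios too were all higher in UTX TCD cells, by 0.65 on the log2 scale (two-sided exact permutation p = 0.10). *Dnmt3aos*, an antisense gene within *Dnmt3a* chosen after its values were seen, had a mean of 44.1 in WT and 50.1 in UTX TCD cells, and its reads cannot be told apart from those of *Dnmt3a* without strand.

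Among the TET enzymes, *Tet2* was counted at 17629, 17918 and 17283 in WT against 20530, 19846 and 19419 in UTX TCD cells. The groups did not overlap, and the log2 fold change was 0.18 (limma SE 0.04, adjusted p = 0.00722). *Tet1* was counted at 13706, 11749 and 13662 in WT against 13411, 13614 and 14046 in UTX TCD cells. Only WT replicate 2 lay apart, below the other 5 libraries, and the log2 fold change of 0.07 had a 95% interval from -0.07 to 0.22 (adjusted p = 0.383 from limma). *Tet3* was counted at 50038, 47963 and 52968 in WT against 45928, 48737 and 42431 in UTX TCD cells. Replicate 2 of the latter lay within the WT range, and the log2 fold change of -0.14 (SE 0.06) did not pass the test (adjusted p = 0.0925 from limma). *Dnmt3a*, *Dnmt3b*, *Tet2* and *Uhrf1* were thus 4 of 7 members that passed the adjusted p alone, against 40.7% of genes tested, and 4 of 7 whose groups did not overlap, against 51.9%.

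**Figure D1:**
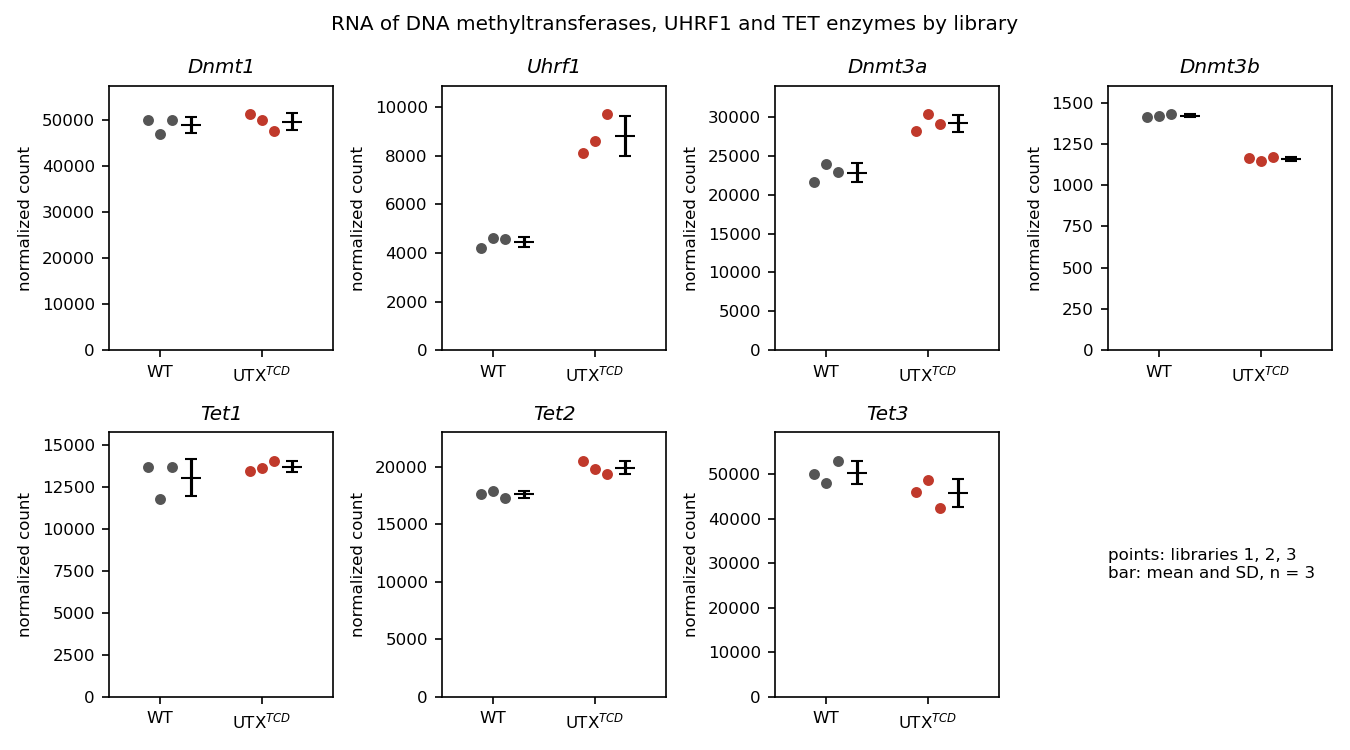
Normalized RNA-seq counts (vertical axes, from 0) of the 7 genes in T_prog_ cells of both genotypes, with 1 point per library and the mean with SD (n = 3) beside them. *Uhrf1* lies between 4220 and 4606 in WT and between 8134 and 9713 in UTX TCD cells, while *Dnmt1* overlaps between the genotypes.

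Levels of the 7 members were compared with each other as normalized count per kilobase of exon. In WT cells the order was *Dnmt1* at 7732 ± 286, *Tet3* at 4286 ± 214, *Dnmt3a* at 2296 ± 120, *Tet2* at 1913 ± 34.5, *Uhrf1* at 1223 ± 58.1, *Tet1* at 908 ± 77.9 and *Dnmt3b* at 328 ± 2.09 (SD, n = 3 each). No neighbors in that order overlapped between libraries. In UTX TCD cells *Uhrf1* reached 2415 ± 222 per kilobase and overlapped *Tet2* at 2165 ± 60.9 (SD, n = 3 each), while the other neighbors stayed apart. Over all 6 libraries, *Dnmt1* stood above 91.4% and *Dnmt3b* above 32.0% of the 13434 tested genes with an exon length.

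The 3 genes whose profile over the 6 libraries lay nearest to that of *Uhrf1* were *Tlr2*, *Ankrd29* and *Prkce*, at root mean square differences of 0.046, 0.051 and 0.057 in centered log2 values, against a median of 0.52 over genes tested.

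Of 15 proliferation markers, 10 were called higher, against 10.5% of genes tested, and 0 lower, against 7.05%. Their median log2 fold change was 0.79 against 0.00 over all genes tested. The largest were *E2f1*, a cell cycle transcription factor, at 1.59, *Top2a* at 1.19, *Mki67* at 1.08, *Ccna2* at 1.02, *Rrm2* at 0.98 and *Cdk1* at 0.96 (each adjusted p at most 0.000423 from limma). Within each list the gene with the largest mean normalized count over the 6 libraries, not corrected for length, is named as its largest by count. Here that was *Mcm6*, with a log2 fold change of 0.42, under the fold limit, although in UTX TCD cells *Mki67* had the larger mean (29708 against 29140). *Pcna*, chosen after its values were seen, did not rise. Its log2 fold change was -0.05 (adjusted p = 0.336 from limma), with all UTX TCD values below all WT values. With a library left out the call of *Mcm4*, chosen after its values were seen, was kept in 4 of 6 fits and the others in all 6. The normalized counts of the 15 summed to 126675, 138712 and 130878 in WT against 186454, 192845 and 206471 in UTX TCD cells. Replicate 3 of the latter was highest in this sum as it was in *Uhrf1*, and the part of cell division in the *Uhrf1* result was not tested.

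Among 9 tested genes of 11 that act with or resemble the methyltransferases, 2 were called higher and 1 lower, with a median of 0.27. Over all genes tested 10.5% were called higher and 7.05% lower. *Pclaf*, a PCNA partner, had a log2 fold change of 1.00 (adjusted p = 0.00137) and *Hells*, a chromatin remodeler needed for methylation, 0.69 (adjusted p = 0.00358), whereas *Trdmt1*, an RNA methyltransferase of the DNMT family, had -0.70 (adjusted p = 0.00164, all from limma). *Trdmt1* was counted at 1220, 982 and 1190 in WT against 679, 619 and 784 in UTX TCD cells, without overlap. *Usp7*, the largest by count, had -0.15. *Dnmt3l*, a cofactor without catalytic activity, reached at most 2 reads in any library, which is under the floor of 3 reads, and was chosen after its values were seen. The ratio of *Uhrf1* to its paralog *Uhrf2*, also chosen after its values were seen, was 0.294, 0.286 and 0.306 in WT against 0.524, 0.529 and 0.611 in UTX TCD cells, again without overlap (two-sided exact permutation p = 0.10). *Uhrf2* itself had a log2 fold change of 0.07, so this ratio too restates the *Uhrf1* difference.

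Around TET, 12 demethylation partners were tested, with a median of 0.08. By limma's adjusted p alone 5 were higher and 2 lower, against 40.7% of genes tested either way. With the fold limit 3 were called higher, against 10.5% of genes tested, and 0 lower, against 7.05%. These were the DNA glycosylases *Neil3* at 1.09 (adjusted p = 0.00084) and *Neil2* at 0.50 (adjusted p = 0.0355), and *Gadd45g* at 0.73 (adjusted p = 0.0226, all from limma). With a library left out the *Neil3* call was kept in 6 of 6 fits, that of *Gadd45g* in 3 and that of *Neil2* in 2. *Ogt*, which binds TET proteins and was the largest by count, rose from 86029, 91288 and 85695 to 114546, 114708 and 115993 (log2 fold change 0.39, adjusted p = 0.000157 from limma). All UTX TCD values exceeded all WT values, below the fold limit.

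Among 7 genes that bear on the supply of TET cofactors, 1 was called lower and 0 higher, with a median of 0.06. Over all genes tested 7.05% were called lower and 10.5% higher. *Idh2*, one of the mitochondrial enzymes that make alpha-ketoglutarate, was counted at 6567, 5647 and 7027 in WT against 3079, 3366 and 3145 in UTX TCD cells. Every UTX TCD library lay below every WT library, with a ratio of means of 0.498 and a 95% interval of the log2 fold change from -1.18 to -0.82 (adjusted p = 2.39e-05 from limma). *Slc23a2*, a vitamin C transporter and the largest of the list by count, had 0.06 (adjusted p = 0.266 from limma).

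Of 9 tested genes that are methyl-CpG readers or belong to the MBD family, and of 11 genes of the methyl donor cycle, 0 were called by limma, edgeR or DESeq2. By limma 4 and 5 genes passed the adjusted p alone, against 40.7% of genes tested, and 4 and 5 an unadjusted p under 0.05, against 49.1%. The largest by count were *Mbd2* at -0.19 and *Mat2a* at 0.15, and the medians were 0.13 and -0.07.

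**Figure D2:**
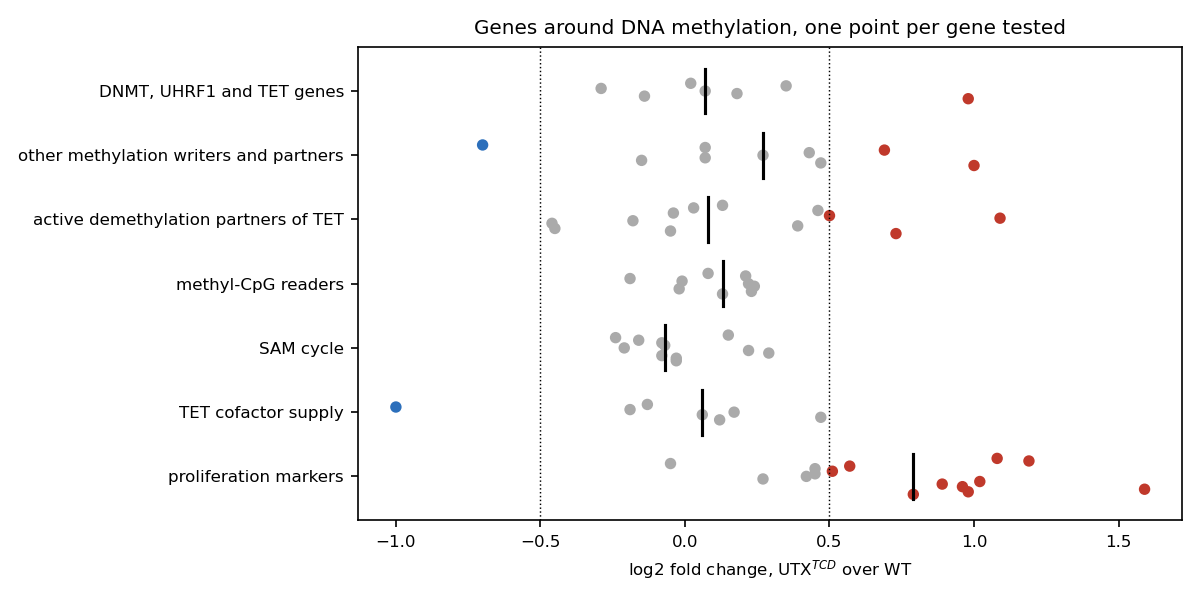
Log2 fold change of UTX TCD over WT (horizontal axis) for each tested gene, by list, with called genes in red (higher) or blue (lower), other genes in gray, list medians as black bars and the fold limits as dotted lines. The median of the proliferation markers lies at 0.79 and that of the 7 DNMT, UHRF1 and TET genes at 0.07.

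Germline genes that promoter methylation keeps silent in somatic cells were mostly near the floor. Of 14 such genes, 2 passed the filter and 8 had at most 3 reads in every library. *Dazl* was called higher, with recovered reads of 9, 10 and 25 across WT and of 18, 64 and 42 across UTX TCD libraries (log2 fold change 1.67, adjusted p = 0.00745 from limma). Per normalized count, which allows for depth, its groups did not overlap. *Hormad1* went the other way, with 9, 5 and 6 reads across WT and 1, 2 and 2 across UTX TCD libraries, but was under the filter and was not tested. With no filter *Stk31* was also called, as lower, with at most 3 reads in any library. Both were chosen after their values were seen. *Sycp3*, the largest by count, had 0.13. Of 5 naive genes that gain methylation in effector CD8+ T cells, 0 were called by limma, edgeR or DESeq2, and by limma 1 passed the adjusted p alone (40.7% of genes tested) and 1 an unadjusted p under 0.05 (49.1%), with a median of -0.08. The gene that passed was *Lef1*, higher in UTX TCD cells at 0.38 (adjusted p = 0.00517 from limma) and chosen after its values were seen. *Tcf7*, the largest by count, had -0.07. *Il7r* was 79127 in WT replicate 2 and between 37105 and 40509 in the other libraries, and was chosen after its values were seen.

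CD8+ T cell markers were abundant in every library. *Cd8a*, the largest by count, was counted at 272448, 270012 and 274004 in WT against 311527, 313000 and 270975 in UTX TCD cells, and 0 of 7 markers were called by limma, edgeR or DESeq2. By limma 4 passed the adjusted p alone, against 40.7% of genes tested, and 5 an unadjusted p under 0.05, against 49.1%. Of the 4, *Cd8b1* (-0.37), *Cd3d* (-0.28) and *Cd3g* (-0.26) were lower and *Cd3e* (0.17) was higher, and these were chosen after their values were seen. Summed normalized counts of 5 B cell markers were 2951, 2437 and 2800 in WT against 1221, 1082 and 1000 in UTX TCD cells. *Cd79b*, the largest by count, was called lower (-1.98), while *Ms4a1* was called higher at 1.72, a call that 2 of 6 fits with a library left out kept, and *Pax5* reached 0 in UTX TCD replicate 2. CD4 T cell markers summed to 518, 413 and 490 in WT against 391, 382 and 369 in UTX TCD cells, with *Zbtb7b* (-1.85) and *Cd4* (-0.74) called lower and *Foxp3* the largest by count at 0.05. With a library left out the *Zbtb7b* call was kept in 6 of 6 fits and the *Cd4* call in 1 of 6, the one without UTX TCD replicate 2. *Cd4* was also not called by DESeq2, or by limma with no filter or with libraries scaled to the same sum. Dendritic cell markers summed to between 186 and 248, with *Xcr1* the largest by count. Myeloid markers summed to between 67.5 and 131, with *Lyz2* the largest, and NK cell markers to between 10.4 and 55.3, with *Klrb1c* the largest. *Ncr1* was at 0 in replicates 2 and 3 of WT and 1 and 2 of UTX TCD cells. *Klra8* had 0 reads in all WT libraries and 2, 6 and 13 across UTX TCD libraries. *Klra8* was under the filter, and with no filter it was called higher. *Pax5*, *Ncr1* and *Klra8* were chosen after their values were seen. *Csf1r*, a myeloid marker, was called lower, with 28, 26 and 25 reads across WT and 2, 7 and 11 across UTX TCD libraries. Its mean over the latter, 6.07, was below the filter's minimum and 1 library was under the floor of 3 reads, so no fold is given. The part of these markers in the results was not tested.

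In ATAC-seq, which marks open chromatin by transposase insertion, the peaks described are those in the authors' deposited comparison. Member peaks in it differed by as little as 0.31, and peaks outside it were not analyzed. *Dnmt3a* had 5 such peaks, *Tet1* 6, *Tet2* 3, *Tet3* 2 and *Dnmt3b* 1, and no listed peak was named for *Dnmt1* or *Uhrf1*. Across the genes tested, 47.6% had at least 1 listed peak of their name. Of the 17 peaks, 13 had the higher mean in UTX TCD cells (76.5%), against 68.8% of all listed peaks. The median absolute difference of mean log2 concentration was 0.54, against 0.71 over all listed peaks, and 15 of 17 lay more than 10 kb from the annotated start (88.2%), against 62.5% of all listed peaks.

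All 5 *Dnmt3a* peaks had the higher mean in UTX TCD cells. The largest gain lay 51.2 kb before the start, at chr12:3755531-3755931 in mm10, in intron 16 of 20 of the neighboring gene *Dtnb*. Its mean log2 concentration was 7.61 in WT and 8.78 in UTX TCD cells, a difference of 1.17. *Dtnb* RNA, looked up after its values were seen, had a log2 fold change of -0.03 (adjusted p = 0.804 from limma). Of the 5 peaks, 3 lay in introns of *Dtnb*, 51.2 to 66.7 kb before the *Dnmt3a* start, and 2 in intron 1 of *Dnmt3a*. *Dnmt3a* RNA was higher as well, and a link between these peaks and the gene was not tested. The *Dnmt3b* peak at chr2:153649471-153649871, in the 5′ UTR of exon 1, had a mean of 9.74 in WT and 10.05 in UTX TCD cells, a gain of 0.31, while its RNA was lower.

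*Tet1* had 3 peaks with the higher and 3 with the lower mean. Its promoter peak, at chr10:62886713-62887113 in intron 1 and 411 bases past the start, had means of 8.62 in WT and 9.30 in UTX TCD cells. The largest gain, 0.85, was at chr10:62858943-62859343 and the largest loss, -0.70, at chr10:62863581-62863981, both in intron 3. Its RNA did not pass the test. In *Tet2* the largest loss, -0.97, was at chr3:133508769-133509169 in intron 2, and the largest gain, 0.46, was intergenic at chr3:133614196-133614596. In *Tet3* the larger gain, 0.79, was intergenic at chr6:83478005-83478405. Taking instead the peaks that overlap a gene body or the 10 kb before its start gave 18 peaks. Of these, 10 were higher and 8 lower, a share higher below the 68.8% of all listed peaks. The only one for *Uhrf1* was named for *Plin3*, at chr17:56293306-56293706 and 9.63 kb from the gene, with means of 9.38 in WT and 8.17 in UTX TCD cells; it was chosen after its values were seen.

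**Figure D3:**
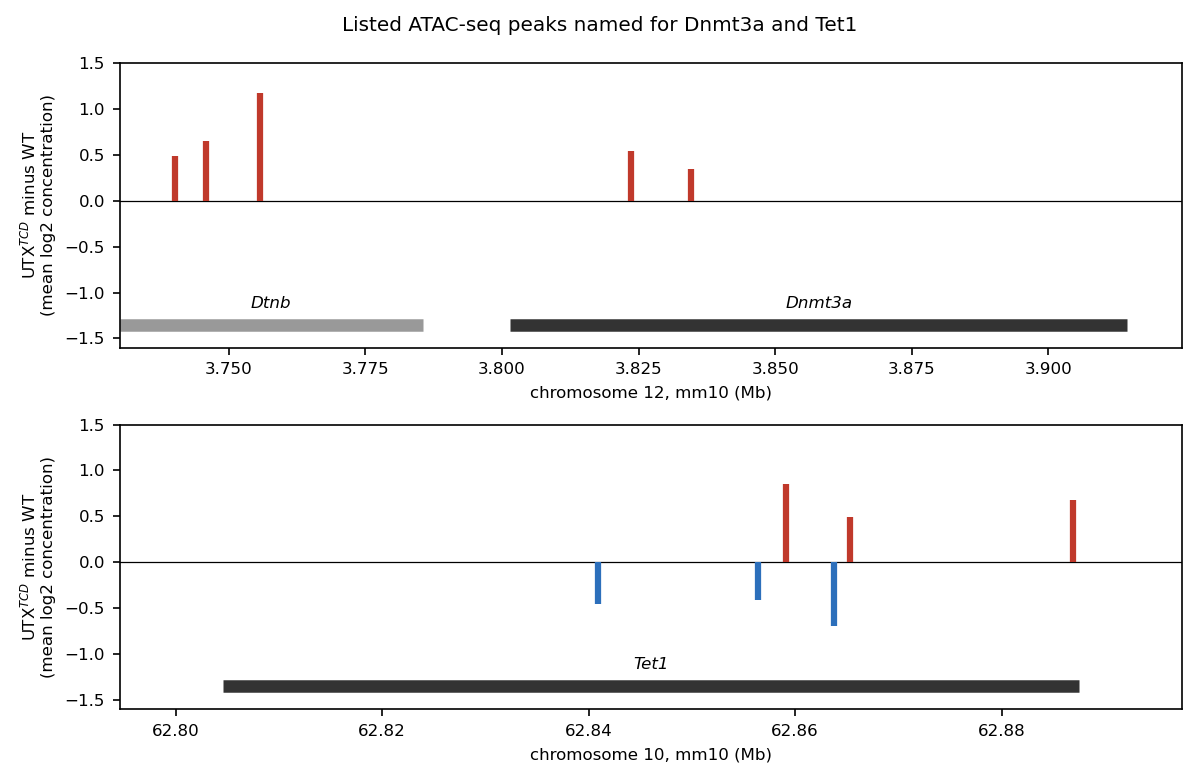
Listed ATAC-seq peaks named for *Dnmt3a* and *Tet1* by position in mm10 (horizontal axes, Mb), with the difference of the authors' mean log2 concentrations, UTX TCD minus WT, as bars (red higher, blue lower) and gene bodies as horizontal bars. All 5 *Dnmt3a* peaks rise above 0, up to 1.17 inside *Dtnb*, while *Tet1* has 3 on each side.

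The peak sequence with the largest gain and that with the largest loss among members are given to show what each opened or closed stretch holds, as the central 300 bases on the plus strand of mm10. Capitals mark the letters AGGAAG (ETS), TGTGGT (RUNX), CTTTGA (TCF), TGANTCA (AP-1) and TTCNNNGAA (STAT), read on both strands, and an AP-1 and a TCF match overlap in the first. Among the central 300 bases of 23908 listed peaks, 49.3% held the ETS letters, 34.4% RUNX, 25.1% TCF, 10.3% AP-1 and 8.82% STAT.
*Dnmt3a*, chr12:3755582-3755881: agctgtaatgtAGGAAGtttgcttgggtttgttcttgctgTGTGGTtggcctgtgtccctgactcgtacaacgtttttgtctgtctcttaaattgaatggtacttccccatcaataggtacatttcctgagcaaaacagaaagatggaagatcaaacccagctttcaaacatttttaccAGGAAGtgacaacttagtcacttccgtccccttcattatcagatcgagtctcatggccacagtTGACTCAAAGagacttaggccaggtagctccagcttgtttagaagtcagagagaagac
*Tet2*, chr3:133508820-133509119: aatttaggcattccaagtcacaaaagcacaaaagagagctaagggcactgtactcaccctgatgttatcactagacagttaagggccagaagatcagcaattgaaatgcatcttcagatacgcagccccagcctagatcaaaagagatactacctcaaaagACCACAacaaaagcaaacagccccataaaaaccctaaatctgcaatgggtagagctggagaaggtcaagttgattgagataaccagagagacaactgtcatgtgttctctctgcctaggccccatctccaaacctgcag

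The 12 RefSeq promoter windows of the 7 members (250 bases before to 50 after a start, GRCm38.p6) were rich in CpG. Of these, 11 held more CpG than the median of 7 over 32817 windows, up to 57 in *Tet2*, and the exception was an upstream start of *Dnmt1* with 2. E2F letters (TTTCGCGC, TTTGGCGC, TTTCCCGC or TTTGCCGC, both strands) were in 2 windows, of *Uhrf1* and *Dnmt1*, and in 2.26% of all windows. The 2 windows are shown because both genes carry these letters while only *Uhrf1* RNA was called; capitals mark the E2F letters, and a match is not a bound site.
*Uhrf1*, chr17:56304063-56304362, plus strand: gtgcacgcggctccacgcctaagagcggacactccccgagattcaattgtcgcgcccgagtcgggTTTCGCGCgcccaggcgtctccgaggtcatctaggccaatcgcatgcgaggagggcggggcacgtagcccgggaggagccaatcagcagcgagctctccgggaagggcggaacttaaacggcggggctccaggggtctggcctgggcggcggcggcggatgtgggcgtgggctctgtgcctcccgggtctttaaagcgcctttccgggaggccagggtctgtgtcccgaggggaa
*Dnmt1*, chr9:20952574-20952873, minus strand: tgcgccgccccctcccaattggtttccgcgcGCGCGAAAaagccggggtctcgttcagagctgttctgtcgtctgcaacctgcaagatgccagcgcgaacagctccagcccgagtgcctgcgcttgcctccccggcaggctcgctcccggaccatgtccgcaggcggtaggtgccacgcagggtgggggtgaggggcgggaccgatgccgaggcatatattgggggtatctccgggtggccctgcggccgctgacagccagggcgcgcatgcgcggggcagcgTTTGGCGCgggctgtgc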

How the data were processed

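RNA-seq and ATAC-seq values came from sorted CD8+ T_prog_ cells of pancreatic lymph nodes, with 3 libraries per genotype in each assay. For RNA-seq the authors aligned reads to mm10 with HISAT2 2.2.1, assigned them to genes with featureCounts and scaled the libraries by DESeq2 size factors, so the deposited signal is a normalized count. The deposited table also holds the authors' fold change and adjusted p-value, which were not used. For ATAC-seq the authors called peaks with MACS2, and DiffBind gave the deposited log2 concentration of each peak as a mean per genotype. Its fold, p-value and FDR columns were not used. No ATAC-seq value per library was used here, so differences of these means carry no SD and no test. Strand setting, gene annotation and a shift for the transposase are not given in the sources used here.

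Dividing each library by its smallest step gave whole reads for 100% of values within 0.05 reads. Depth was 61512402 to 193568919 counted reads, and floors of 3 reads reflect only counting error. The filter kept genes whose normalized count averaged 10 or more, and limma 3.58.1 (R 4.3.3, trended eBayes) was fitted to log2(normalized count + 1). Benjamini-Hochberg adjustment ran over every gene tested, and genes were called where adjusted p was below 0.05 with a log2 fold change beyond 0.5 either way. The study states this fold limit in one place and a fold change of 1.5 in another, which was an alternative. The script was tested on simulated data. Alternatives covered the pseudocount, filter, scaling, limits, replicate block, each library left out, edgeR 4.0.16 and DESeq2 1.42.0 on recovered reads, and the assignment of peaks. Exon lengths and promoter sequences came from RefSeq for GRCm38.p6, the same build as mm10. Levels with GENCODE lengths, the alternatives for the gene lists and the sequence motifs were chosen after seeing the data.

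The members and lists were chosen with earlier results of these data known. The genes named are the 7 members, *Kdm6a*, up to 6 called genes of each list with its most abundant gene, the 3 genes nearest in profile to a called member, and for each member the peaks with the largest gain and loss and those at promoters. Others are named as chosen after their values were seen.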

Additional observations from a re-analysis of the deposited data

How the results depend on the processing

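*Uhrf1* was called under every alternative, and no other member was except without a fold limit, where *Dnmt3a*, *Tet2* and *Dnmt3b* joined it (4 members; 5887 genes in all). Over 15 alternatives the log2 fold change ran from 0.91 to 1.04 for *Uhrf1*, 0.32 to 0.42 for *Dnmt3a*, -0.30 to -0.23 for *Dnmt3b* and 0.16 to 0.24 for *Tet2*, with adjusted p at most 0.035. *Tet1* (0.00 to 0.14) and *Tet3* (-0.19 to -0.08) did not pass under any of them. *Dnmt1* ran from -0.01 to 0.08, highest when scaled to the same sum (at most 0.05 with 1 library left out), and changed sign without WT replicate 2 (-0.01) or UTX TCD replicate 1 (-0.00); the cause was not tested. Scaling to the same sum moved the median of all genes by 0.062. edgeR called 2541 genes and DESeq2 2422, and leaving out libraries gave 2164 to 2570. With a replicate block 2474 genes and 1 member were called. Deviations of same-numbered libraries correlated at 0.305, -0.20 and 0.09, and those of the other pairs at -0.324 to 0.294. With 3 libraries per genotype these values cannot decide whether same-numbered samples were paired. Of the 17 peaks, 9 differed by over 0.5, 1 by over 1 and 2 lay within 1 kb of a start.

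With no fold limit 40.7% of genes tested were called. For the lists, this gave 14 of 15 proliferation markers, 7 of 9 methylation partners and 7 of 12 demethylation partners. It also gave 4 of 9 readers or MBD family genes and 5 of 11 donor cycle genes. Of cofactor genes 3 of 7 were called, of naive genes 1 of 5 and of CD8 markers 4 of 7. A fold change over 1.5 gave 8 proliferation markers and 2 demethylation partners (2204 genes in all). An adjusted p under 0.01 (1972 genes in all) gave 1 demethylation partner, 1 B cell and 1 CD4 marker. A minimum of 50 (2065 genes in all) gave 0 germline, 1 B cell, 0 myeloid and 1 CD4 gene. No filter (2755 genes in all) gave 2 demethylation partners, 2 germline (1 higher, 1 lower), 1 NK and 1 CD4 gene. Either scaling gave 4 methylation partners, 2 cofactor genes and 1 dendritic gene, and the same sum also 12 proliferation markers and 4 demethylation partners. In all, the same sum called 2580 genes and the same upper quartile 2546. The same sum and DESeq2 gave 1 CD4 gene. Pseudocount 10 (2543 genes in all) gave 2 demethylation partners, 1 dendritic gene and 3 CD4 genes. Leaving out libraries (2164 to 2570 genes in all) gave 9 to 10 proliferation markers, 3 to 5 methylation partners and 1 to 4 demethylation partners. It also gave 1 to 2 cofactor and B cell genes, 1 to 3 CD4 genes, and 0 to 1 dendritic genes. Of 208 list medians under alternatives, 195 moved by less than 1 SD. UTX TCD replicate 1 had the lowest depth, 61512402 reads, so 3 reads there are 6.75 normalized counts.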
